A study of Mus musculus with 8 samples.

Results

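Of 9418 m6A peaks listed for wild-type round spermatids, 299 (3.17%, Wilson 95% interval 2.84 to 3.55) overlapped a peak of Alkbh5 knockout round spermatids and no peak of pachytene spermatocytes of either genotype. These 299 peaks, the members, lay in 290 genes. They were chosen by overlap: a row of the wild-type round spermatid list was a member when its exon blocks shared at least 1 bp, on the same chromosome and strand, with a row of the knockout round spermatid list, and shared none with either pachytene list. The presence of a peak in the 4 lists therefore chose the members and is not a finding, and the peak folds and false discovery rates belong to the same contrast and are given as a description. The 4 lists hold 35697 peaks in all.

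The study profiled m6A in spermatogenic cells by methylated RNA immunoprecipitation sequencing (MeRIP-seq), in which RNA fragments bound by an antibody against m6A are sequenced beside the unselected fragments, the input. Its 8 samples form 8 groups of 1 library: pachytene spermatocytes (PA) and round spermatids (RO), each wild type (WT) or Alkbh5-/- (KO), each as input and as immunoprecipitate (IP). All mice were C57BL/6 and 12 weeks old, and the cells came from their testes; the KO mice are labelled Alkbh5-/-, with no other allele or agent named, and the labels do not say how the cells were separated or how many mice gave each library. With 1 library a group there is no replicate error within a genotype and no test was made there, and every interval below covers counting error only. The only test is a fit of RO against PA over the 4 inputs with the genotype as a block, which leaves 1 residual degree of freedom.

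The input libraries held between 9921365 and 13147239 counts. Markers of the 2 cell types separated the inputs only in part, so the PA and RO names are used as labels. Of 45 round spermatid marker genes, 26 carry a symbol in the lists, and 11 of these were at least 2-fold higher in RO than in PA in WT and 3 in KO, with none 2-fold lower; their summed level was 1619 and 2431 CPM, which are counts brought to the same library size, in WT PA and WT RO, and 1888 and 2761 in KO PA and KO RO. Of 22 pachytene markers, 6 carry a symbol and none passed 2-fold either way, with a summed level of 2828, 2579, 1757 and 2101 CPM in WT PA, WT RO, KO PA and KO RO. The synaptonemal complex gene Sycp1 had 4219 counts in WT PA and 4192 in WT RO. All 3 Leydig cell markers with a symbol were at least 2-fold lower in RO than in PA in both genotypes, and their sum fell from 155 to 47.7 CPM in WT and from 45.3 to 17.3 CPM in KO. None of 4 Sertoli markers passed 2-fold, with sums of 239 and 172 CPM in WT PA and WT RO and 318 and 198 in KO PA and KO RO. The 5 peritubular, endothelial and blood markers summed to 368 and 188 CPM in WT but 371 and 364 in KO. Of these 5, 1 was 2-fold higher and 2 lower in WT RO, and none passed in KO. The part of these other cells in the results below was not tested.

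N6-methyladenosine is written on nascent RNA by the Mettl3-Mettl14 methyltransferase complex, removed by the demethylases Alkbh5 and Fto, and bound by YTH-domain proteins that act on splicing, decay and translation. The writer prefers the letters DRACH (D is A, G or T; R is A or G; H is A, C or T), of which GGAC is the commonest core, and peaks in most tissues gather in coding sequence and in the 3′ untranslated region (UTR) near the stop codon. Pachytene spermatocytes are in meiotic prophase, and round spermatids are the haploid cells that follow, which store many transcripts for later translation while the acrosome and tail are built.

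Bases of the members themselves could be read where a peak reached into the RefSeq promoter windows of build GRCm38.p6 (250 bases before a gene start to 50 after). This was so for 5 members, and 3 of them held GGAC there. They are shown because they are bases under a round spermatid peak with the core of the m6A motif; capitals mark GGAC.
Hirip3 5′ UTR, chr7:126862000-126862021, + strand: tcacagaggagctGGACactgg
Myo9a 5′ UTR, chr9:59751178-59751196, + strand: ccgccgctctctcGGACcc
Als2cr12 exon, chr1:58692396-58692424, - strand: tgccttgtaccatGGACcccaatcctttc
The 5′ UTR peak of Chmp1a and the coding peak of Sppl2c held no GGAC in the 25 and 50 bases read. For scale, 18.9% of all RefSeq promoter windows held GGAC in the 50 bases after the start, searched on the strand of the gene. The bases read were 50 for Hirip3 and Als2cr12 and 121 for Myo9a, so the lengths are not all alike. A match is a run of letters and not a mapped methyl site.

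The members were a small class of the WT RO list. Of its 9418 peaks, 3879 overlapped all 3 other lists and 2903 overlapped none. A WT RO peak was shared with KO PA and no other list in 526 cases and with WT PA and no other list in 355, both more often than with KO RO and no other list, the 299 members. In the KO RO list 1251 peaks were shared with KO PA and no other list, against 313 shared with WT RO and no other list. Peaks shared with the PA list of the same genotype and no other thus outnumbered those shared with the RO list of the other genotype, 355 to 299 and 1251 to 313. Each count depends on the depth of the libraries behind each list. As a share of the 5260 WT RO peaks that had a KO RO counterpart, the members made up 5.68% (5.09 to 6.34). The reverse class, peaks of both PA lists and neither RO list, held 431 of 7502 WT PA peaks and 7.21% (6.58 to 7.89) of the 5980 shared by both PA lists.

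**Figure D1:**
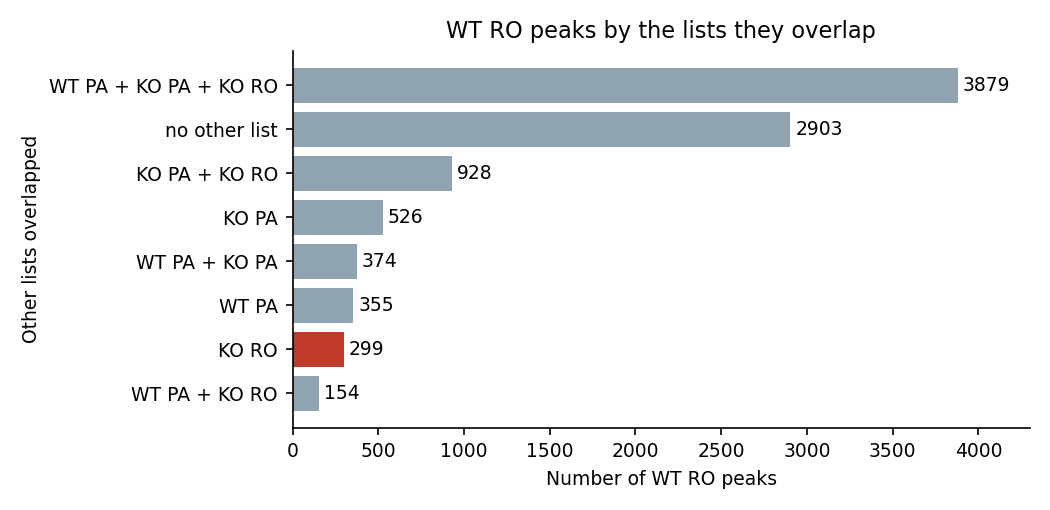
Number of WT RO peaks (horizontal axis) by the set of other lists they overlap (vertical axis, 1 bar per set, 9418 peaks in all; the bar in red is the members). The 299 members are fewer than the 526 peaks shared with KO PA only and the 355 shared with WT PA only.

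Members lay less often in coding sequence and more often in 3′ UTRs than the 4961 WT RO peaks that were shared with KO RO and with at least 1 PA list. Coding sequence held 126 members, 42.1% (36.7 to 47.8), against 59.0% of the shared peaks, a difference of -16.9 percentage points (Newcombe 95% interval -22.5 to -11.1). The 3′ UTR held 97 members, 32.4% (27.4 to 37.9), against 21.6%, a difference of 10.9 points (5.69 to 16.5). Exons outside these classes, which include non-coding genes, held 69 members, 23.1%, against 16.8% (6.31 points, 1.76 to 11.5). The 5′ UTR held 7 members, 2.34%, against 2.56%, and this difference (-0.219 points, -1.51 to 2.23) was not detectable. Peaks called in both PA lists and no RO list had 55.7% in coding sequence and 17.4% in 3′ UTRs. The 2903 WT RO peaks without a counterpart in any list were like the members in this, with 36.2% (34.5 to 38) in coding sequence, 29.1% (27.5 to 30.8) in 3′ UTRs and 28.3% in other exons, so the shares are not particular to the members.

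The members were also narrower and lower than shared peaks. Their exonic width had a median of 181 bp (quartiles 151 and 240, range 116 to 928) against 299 bp. The median was 181 bp for members in coding sequence, in 3′ UTRs and in other exons alike. Other peaks found in few lists were as narrow: the median was 180 bp for WT RO peaks in no other list and 181 bp for peaks of both PA lists only. Within a width of 120 to 240 bp, where 226 members and 1763 shared peaks lie, coding sequence held 41.6% and 55.2% (-13.6 points, -20.2 to -6.68) and 3′ UTRs 32.3% and 23.9% (8.36 points, 2.25 to 15). Most widths came in steps: 268 of 299 members (89.6%) were within 1 bp of a multiple of 30 bp. Peaks over more than 1 exon block made up 8.7% of members and 13.9% of shared peaks, but 9.29% and 8.22% within that width range.

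**Figure D2:**
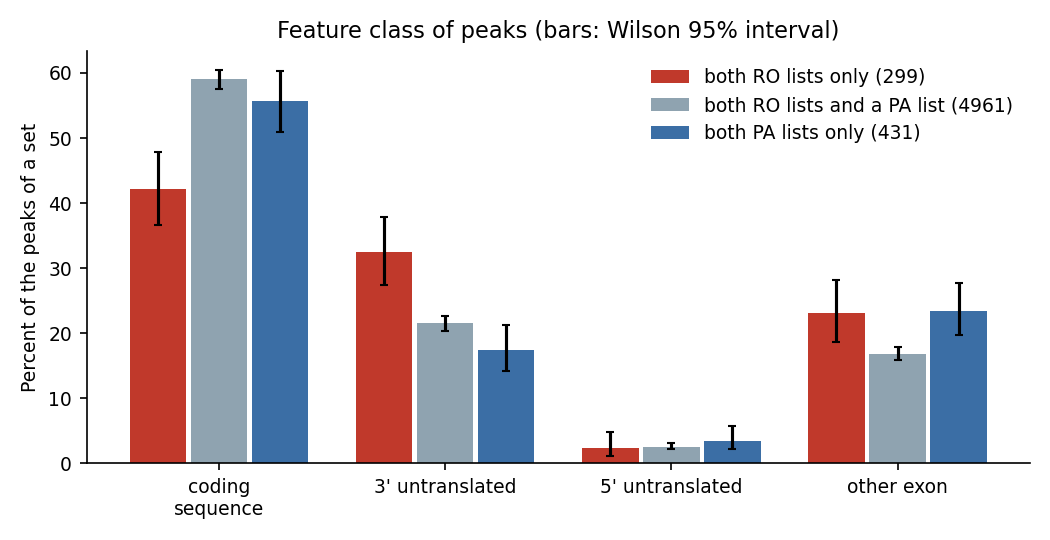
Percent of peaks (vertical axis) in each feature class (horizontal axis) for the 299 members, the 4961 WT RO peaks shared with KO RO and a PA list, and the 431 WT PA peaks of both PA lists only; error bars are Wilson 95% intervals. Of the 3 sets drawn, members have the lowest share in coding sequence (42.1%) and the highest in 3′ UTRs (32.4%); WT RO peaks in no other list, not drawn, have 36.2% and 29.1%.

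Protein-coding genes carried 257 members (86.0%, against 91.2% of shared peaks, -5.28 points, -9.74 to -1.7). Long intergenic non-coding RNAs carried 15 (5.02% against 2.02%, 3 points, 1 to 6.12), antisense RNAs 11 (3.68% against 1.67%) and pseudogenes 12 (4.01% against 3.27%, an interval that spans 0). Within a width of 120 to 240 bp the differences for protein-coding genes (-3.57 points, -8.78 to 0.514) and antisense RNAs (1.61, -0.281 to 4.94) also span 0, and that for long intergenic RNAs was 2.77 points (0.502 to 6.45). Peaks of the WT RO list alone had 79.8%, 6.54% and 4% in the 3 classes. Symbols of the predicted kind (Gm or Rik) made up 17% of member symbols and 13.1% of the symbols of shared peaks. Chromosome X, which is silenced in pachytene cells and partly active again in round spermatids, held 5 members (1.67%) against 1.53% of shared peaks, a difference of 0.14 points (-0.889 to 2.34). These 5 were in 4933403O08Rik, Actrt1, Armcx5, Pabpc5 and Tex13c1. Chromosome Y held 2 members (0.669%), none of the 4961 shared peaks and 5 (0.172%) of the 2903 WT RO peaks in no other list. The 2 members were the coding peaks of Zfy1 (chrY:726323-726442) and Zfy2 (chrY:2107180-2108504). These are near-identical zinc finger genes with roles in meiosis and spermatids whose reads may be hard to tell apart. Zfy1 had 67 counts in WT PA, 113 in WT RO, 267 in KO PA and 312 in KO RO, and Zfy2 had 172, 188, 236 and 499. Both were higher in RO than in PA of the same genotype, and both were higher in each KO library than in the WT library of the same cells.

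The fold of a peak, the IP over input ratio that the authors' lists give, had a median of 13.5 among members (quartiles 8.07 and 21.5, range 2.24 to 163) against 21.9 in the shared peaks, 10.8 in WT RO peaks of no other list and 8.43, on the WT PA scale, in peaks of both PA lists only. The KO RO counterparts had a median of 9.32 (1.51 to 179). Folds of the WT RO list recurred at fixed values, 6.73, 8.07, 9.42, 10.8 and 12.1 being the 5 most frequent, at a step of 1.34. Among members with a fold between 3 and 30, 182 of 249 (73.1%, 67.3 to 78.2) lay on a multiple of that step within rounding, against 49.6% (47.8 to 51.4) of the shared peaks. In the KO RO list the step was 0.583, and 183 of 273 counterparts (67%) lay on it. Folds of WT and KO counterparts were only weakly related across members (Pearson r 0.15, Spearman rho 0.14, n = 299 peaks, which share the same 4 libraries), and 51 members (17.1%) were above the median fold of both lists. A false discovery rate of 0.05 or more was given for 15.7% of members and 3.29% of shared peaks, and 239 members were under 0.05 in both RO lists.

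The match between the RO lists was often partial. The overlap with the KO RO counterpart had a median of 149 bp, or 67% of the member. All bases were covered in 73 members (24.4%), and under 50% in 75 (25.1%). The least overlap, 1 bp, was found among others for Nup153 (a protein of the nuclear pore basket), Zdhhc5 (a palmitoyltransferase) and C2cd6. Both lists gave the same feature class in 280 of the 299 (93.6%). On the other side of the rule, the members nearest to a PA peak were Adam30 at 27 bp, Gm5361 at 28 bp and Gm19026 at 29 bp. The peaks just outside were those of Zfp955a, Taf5l and Tmprss11f, which overlapped a PA peak by 1 bp and had folds of 120, 101 and 99.5.

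Many members were in transcripts that had m6A peaks in pachytene cells at another place. For 166 members (55.5%, 49.9 to 61) the gene had a peak in a PA list, and for 133 (44.5%, 39 to 50.1) it had none. The share with a PA peak was 48% when the RO peaks had to overlap by 50% and 49.2% when no PA peak lay within 100 bp, and it was 49.7% (47.9 to 51.5) for WT RO peaks in no other list. The nearest PA peak of the gene lay at a median of 359 bp (quartiles 119 and 1673, range 27 to 407622). It was within 100 bp for 37 members (12.4%), within 1000 bp for 116 (38.8%), and over 10 kb away for 22. For these 37 members the gap was no longer than the RNA fragments, which measured 100 to 200 nt. The imprinted antisense RNA Kcnq1ot1, with a 900 bp member (chr7:143223282-143224181), had 11 peaks in WT PA and 12 in KO PA, the nearest 59 bp away. The DNA repair gene Brca2 had 6 and 12 PA peaks beside 2 members in its coding sequence (chr5:150536874-150537054 and chr5:150542160-150542310). By contrast Shisa7, an auxiliary subunit of neurotransmitter receptors with the longest member (928 bp, 3′ UTR, chr7:4828751-4829678), had no PA peak at all.

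**Figure D3:**
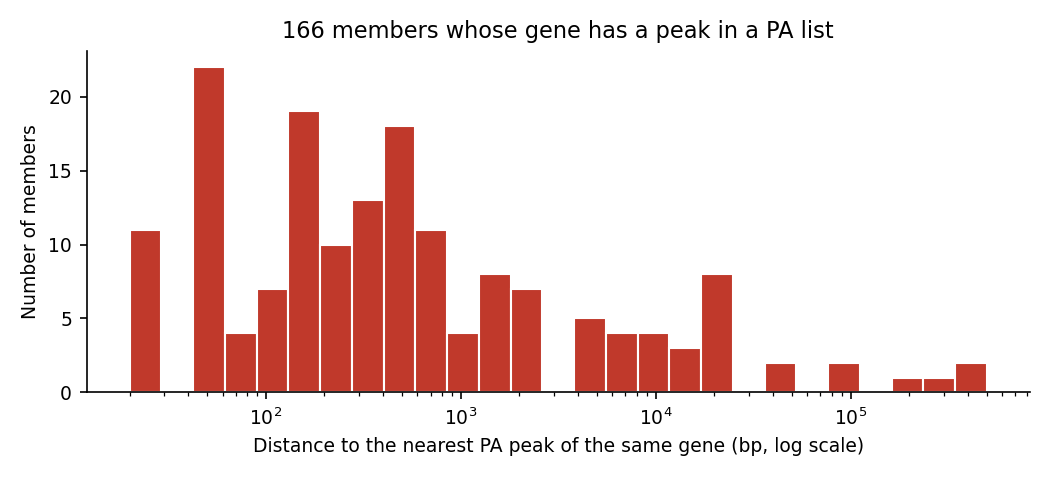
Number of members (vertical axis) by distance in bp to the nearest PA peak of the same gene (horizontal axis, log scale), for the 166 members whose gene has one; the median is 359 bp. The bars at the left, below 100 bp, hold 37 members.

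The genes of the members were expressed in the PA inputs. Of 290 genes, 209 (72.1%) had 100 counts or more in both PA libraries, and 5 were below 1 CPM in both, of which 2 reached 1 CPM in both RO libraries. Their median count was 352 in WT PA, 368 in WT RO, 325 in KO PA and 338 in KO RO, against 608, 595, 562 and 545 for genes of the shared peaks. Members thus lay in genes with fewer reads than shared peaks in all 4 libraries.

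The lists of m6A, cilium, acrosome, chromatin and spermatid RNA genes used here held 0 to 2 member genes each. None of the cilium and axoneme genes (30 of 65 with a symbol) and none of the m6A enzymes and readers (13 of 21) carried a member; their 12 and 10 genes with a shared peak are 0.365% and 0.304% of the symbols of shared peaks, so that none among 289 member symbols is near these shares. The list of acrosome and nuclear shaping genes gave Hook1, chromatin and histone exchange gave Kmt2e, and RNA regulation in spermatids gave Crem and Tdrd5. The shares of member symbols were 0.346% for the acrosome list, against 0.182% of the symbols of shared peaks, 0.692% against 0.608% for the RNA list and 0.346% against 2.43% for the chromatin list. Crem was also the only member among the round spermatid markers (0.346% against 0.274%). None of the listed pachytene, spermatogonial, Sertoli, Leydig or blood and vessel markers carried a member. Their genes with a shared peak are 0.0304%, 0.0304%, 0.0608%, 0% and 0.0912% of the symbols of shared peaks. None among 289 member symbols is again near these shares.

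Crem encodes the transcription factor that drives many postmeiotic genes. Its member is a 121 bp peak of the 3′ UTR (chr18:3267544-3267664, - strand) with a fold of 10.1 in WT RO and 6.04 in KO RO, fully covered by the KO RO peak, and the nearest PA peak of Crem was 298 bp away. The gene had 94.4 CPM in WT PA, 145 in WT RO, 113 in KO PA and 139 in KO RO. Both RO libraries were above both PA libraries, by a log2 ratio of 0.61 (0.51 to 0.73) in WT and 0.29 (0.18 to 0.40) in KO, short of 2-fold.

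Hook1 links vesicles and the manchette to microtubules and is needed for the normal shape of the sperm head. Its 151 bp 3′ UTR member (chr4:96022391-96022541) had low folds of 2.55 and 3.33 in WT RO and KO RO, and no PA list held a Hook1 peak. Its input level was 648 CPM in WT PA, 1050 in WT RO, 581 in KO PA and 777 in KO RO. The RO libraries were again the higher pair, with log2 ratios of 0.70 (0.66 to 0.74) and 0.42 (0.37 to 0.47).

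Tdrd5, a Tudor-domain protein of germ granules needed for transposon control and spermatid development, had a coding member (chr1:156301659-156301808, 150 bp, fold 6.56 and 8.15) and no PA peak. It had 250 CPM in WT PA, 204 in WT RO, 108 in KO PA and 90.2 in KO RO. The genotypes stood further apart than the cell types, and the log2 ratio of RO over PA was -0.29 in WT and -0.26 in KO. Kmt2e, a SET-domain chromatin regulator, had a coding member 269 bp from a PA peak, and 344, 234, 279 and 257 CPM in the same order of libraries.

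The 10 genes with the highest member fold in WT RO had varied functions. They were ranked on the WT fold, and each KO RO fold was lower. Iba57, which acts in mitochondrial iron-sulfur cluster assembly, led with a fold of 163 in WT RO and 18.1 in KO RO for a 271 bp coding peak (chr11:59158305-59158575). Shisa7 followed with 107 and 24.5, Gm19026 with 96.9 and 21, Nup153 with 94.2 and 3.75, and Isg20, an exonuclease induced by interferon, with 90.1 and 12.2. The others were the phospholipid flippase Atp8b1 (83.4), Zdhhc5 (79.4), 0610037L13Rik (75.3), the testis metalloprotease family gene Adam34 (72.6) and the Rab activator Dennd5a (72.6). Of these 10 genes, Gm19026, Nup153, Zdhhc5 and Adam34 also had a PA peak.

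Several members fell into families or pathways, which were grouped after their values were seen and so are a description of the set. Apart from the Zfp genes below, the share of each group among genes of shared peaks or all genes was not counted. The group sizes therefore do not tell whether members are concentrated in any of them. The Notch pathway had 4 genes. They were the receptor Notch2 (3′ UTR), the ligand Jag2 (3′ UTR), the coactivator Maml2 (coding) and the target gene Hes1 (coding), a repressor. Hes1 had 121 counts in WT PA, 60 in WT RO, 132 in KO PA and 140 in KO RO. Maml2 had 131, 22, 70 and 107. WT RO was the lowest library for both, and their log2 ratios were -0.96 and -2.44 in WT but 0.07 and 0.58 in KO. Over the 4 genes the ratios ran from -2.44 to -0.15 in WT and from -0.14 to 0.58 in KO.

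DNA repair and replication gave 7 genes with 8 members, of which 6 had a PA peak. They were the recombination genes Brca1 and Brca2, the replication factors Ticrr, Orc2 and Gins3, the poly(ADP-ribose) hydrolase Parg and the transcription-coupled repair factor Uvssa. Their log2 ratios ran from -0.78 to 0.87 in WT and from -0.31 to 0.21 in KO, none past 2-fold. Brca1 was the highest of them in WT, with 2158 counts in WT PA, 3860 in WT RO, 2901 in KO PA and 3256 in KO RO, a log2 ratio of 0.87 (0.79 to 0.94) in WT and 0.15 (0.08 to 0.22) in KO.

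Centrosome, spindle and kinetochore genes numbered 9, among them the kinetochore motor Cenpe, the augmin subunits Haus3 and Haus6 and the dynein regulator Nde1. Their ratios ran from -1.58 to 0.72 in WT and from -0.82 to 0.60 in KO. Genes of chromatin and transcription numbered 13 with 14 members and ratios from -0.56 to 0.61 in WT and from -0.44 to 0.75 in KO. RNA binding and decay gave 10 genes, including the decapping enzyme Dcp2, the splicing regulators Celf5 and Celf6 and the mRNA decay factor Zfp36l2. The metalloproteases Adam20, Adam30 and Adam34, expressed in testis, each had 1 coding member and a PA peak within 27 to 207 bp. Genes of the sperm tail and head numbered 6, grouped after their values were seen (Fsip2, Hook1, Dnhd1, C2cd6, Actrt1 and Ttll4), with median log2 ratios of 0.37 in WT and -0.05 in KO.

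Clustered protocadherins, adhesion genes of neurons whose exons are shared within a cluster, gave 4 genes with 5 coding members (Pcdha1 with 2, Pcdha8, Pcdhga1 and Pcdhga12), and reads in them cannot be assigned with certainty. Zinc finger genes with the Zfp symbol gave 14 genes, 4.84% of member symbols against 3.71% of the symbols of shared peaks. Genes with 2 members numbered 9. The 5 with the most member bases were Zfp318 (a nuclear zinc finger protein, 1 coding and 1 3′ UTR member), Gm14151, Zdhhc5, the exonuclease family gene Eri2 and the ubiquitin ligase family gene Trim59.

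As a group the member genes were little higher in RO than in PA input. Genes were kept with at least 1 CPM in either library, and past 2-fold counted as a call. In WT, 40 of 286 member genes (14%) were at least 2-fold higher in RO and 24 (8.39%) at least 2-fold lower, where 21.6% and 18.7% of all 23979 genes were. In KO, 18 of 285 (6.32%) were higher and 9 (3.16%) lower, where 17.5% and 15.2% of all genes were. For genes of WT RO peaks in no other list these shares were 14.5% and 9.89% in WT and 8.24% and 7.95% in KO. The median log2 ratio was 0.11 in WT and 0.07 in KO, against 0.01 for all genes in both and -0.04 and -0.03 for genes of shared peaks. The inputs also entered the peak calling, so these ratios are not independent of how the members were chosen. In whole-cell RNA, a change in the cells sampled and a change in RNA per cell cannot be told apart.

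The share of calls in all genes depends on depth, and low-count genes dominate it. With at least 10 CPM, 10.1% of 237 member genes were 2-fold higher in WT RO and 7.59% lower, against 11.5% and 9.64% of all genes. In KO the values were 5.02% and 2.93% of 239 member genes, against 5.21% and 5.64% of all genes. The shares of higher genes were then near those of all genes in both genotypes. The scatter between libraries was larger than counting error: among all genes with 640 to 2560 counts over both WT libraries, the log2 ratios had a robust SD of 0.58, where counting alone gives 0.08, and in KO these were 0.42 and 0.09. At lower counts the scatter was wider. The robust SD was 0.92 in WT and 0.68 in KO at 160 to 640 counts, and 1.51 and 1.23 at 40 to 160. A 2-fold ratio of a single gene with so few counts lies within or near this scatter. Above 2560 counts, where Crem and Hook1 lie, the robust SD was 0.39 in WT and 0.29 in KO, against log2 ratios of 0.61 and 0.70 for these genes in WT and 0.29 and 0.42 in KO.

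Member genes without any PA peak and those with a PA peak differed somewhat in WT. The 128 genes without had a median log2 ratio of 0.21, and in 25 of them (19.5%) RO exceeded PA by 2-fold or more. For the 158 genes with a PA peak these values were 0.05 and 15 (9.49%), while 21.6% of all genes passed. In KO the medians were 0.10 and 0.04, and 9 genes passed in each subset (7.03% and 5.73%), against 17.5% of all genes. With at least 10 CPM, the WT medians were 0.21 and 0.02. In WT 12 genes then passed in each subset, 13.6% of 88 and 8.05% of 149, against 11.5% of all genes. In KO 3 (3.37%) and 9 (6%) passed, against 5.21% of all genes. At 1 CPM or more, genes with members in the other exon class had a median of 0.21 in WT and 0.20 in KO. The medians were 0.03 and 0.01 for coding members and 0.10 and 0.02 for 3′ UTR members.

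Few genes passed 2-fold in the same direction in both genotypes. Of 283 member genes kept in both, 7 (2.47%) were higher in RO in both, where 5.03% of all 21416 genes were, and 3 (1.06%) lower in both, where 3.62% were. With at least 10 CPM these were 3 (1.33%) higher and 3 (1.33%) lower of 226, against 1.4% and 1.18% of all genes. A ratio above 0 in both genotypes was seen in 108 of 283 member genes (38.2%), against 29.4% of all genes and 28% of the genes of shared peaks. It was seen in 32.7% of the genes of WT RO peaks in no other list. Of those, 2.72% were 2-fold higher and 1.53% lower in both genotypes at 1 CPM or more. Set against each other over the 283 genes, WT and KO ratios gave r = 0.21 (Pearson) and rho = 0.33 (Spearman), and with at least 10 CPM 0.42 and 0.46 (226 genes). These are descriptions over genes of the same 4 libraries.

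In the fit over the 4 inputs with the genotype as a block (edgeR's quasi-likelihood test, Benjamini-Hochberg adjusted p under 0.05 over 27369 genes), 8 of 288 member genes (2.78%) were higher in RO and none was lower. Of all genes 0.782% were higher and 0.486% lower, and of the genes of shared peaks 1.88% and 1.14%. At an unadjusted p under 0.05, 34 member genes (11.8%) were higher and 13 (4.51%) lower. Of all genes 5.25% and 3.89% were, and of the genes of shared peaks 9.69% and 7.69%. DESeq2 also called 8 higher (2.78%) and none lower, where 0.522% and 0.314% of all genes were. At its unadjusted threshold 23 member genes (7.99%) were higher and 6 (2.08%) lower, where 4.56% and 3.03% of all genes were. The fit was added after the data were seen. Within a gene its only error is the difference between the genotypes in the RO to PA change. Both tools also draw on the spread of the other genes, so the p-values do not rest on the gene alone. Since the inputs also entered the peak calling, the fit is not independent of how the members were chosen. It was not repeated among genes of like depth, so the shares above are a description.

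The 8 genes of the edgeR fit were Lrrc37a, Gm14147, Gm14151, the mucin gene Muc16, Celf5, the sperm tail gene Fsip2, Il17rd and Hook1, and each was higher in RO in both genotypes. Lrrc37a, which encodes a leucine-rich repeat protein, had 310 CPM in WT PA, 727 in WT RO, 382 in KO PA and 585 in KO RO. Both RO libraries were above both PA libraries, with a fitted log2 ratio of 0.92 and an adjusted p of 0.000137 in edgeR. Muc16 had 337, 720, 215 and 328 CPM, where KO RO was below WT PA, and a fitted ratio of 0.85 (adjusted p 0.00156 in edgeR). Celf5 had 116, 284, 125 and 189 CPM and a fitted ratio of 0.95 (adjusted p 0.00374 in edgeR). Fitted ratios were 0.47 for Fsip2 and 0.56 for Hook1, with adjusted p of 0.0284 and 0.0459 in edgeR. Crem, with a fitted ratio of 0.45 and an adjusted p of 0.561 in edgeR, did not pass. In DESeq2, Il17rd had an adjusted p of 0.0651 and did not pass. Pnmal2 passed in DESeq2 with an adjusted p of 0.0221 but not in edgeR, where it was 0.0546.

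**Figure D4:**
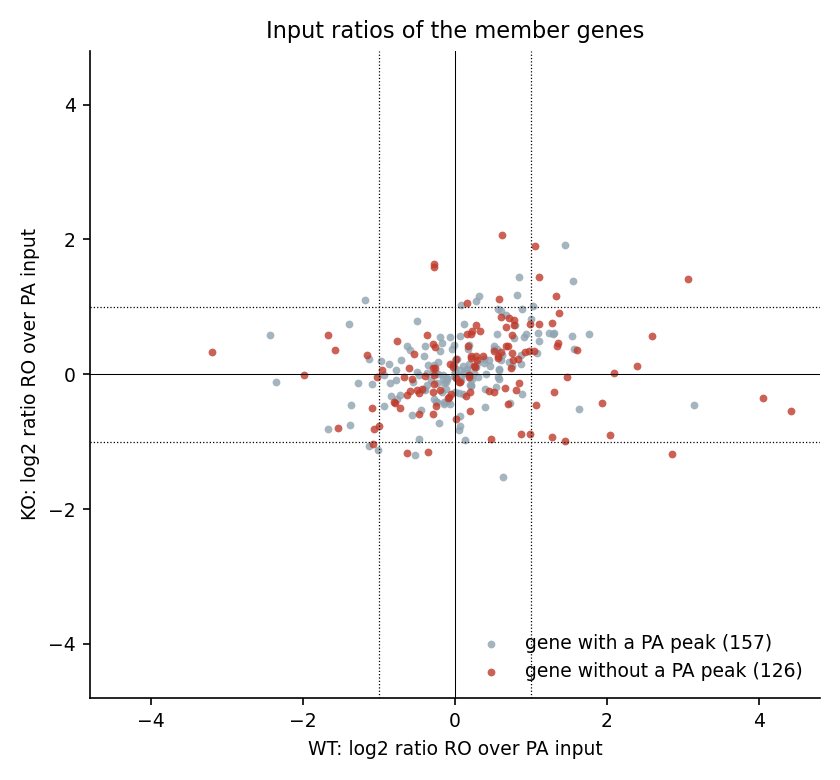
Log2 ratio of RO over PA input in WT (horizontal axis) and in KO (vertical axis) for the 283 member genes with at least 1 CPM in both genotypes, 1 point per gene, coloured by whether the gene has a PA peak; dotted lines mark 2-fold. Most points lie within the dotted lines, with 7 beyond both at the upper right and 3 at the lower left.

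The 7 genes 2-fold higher in RO in both genotypes were Gm3642, Gm1988, Gm14151, Gm37607, Gm45631, Gm44317 and AC152979.3, all predicted genes or clone names, and several may share reads with similar copies. Gm14151 was the most abundant of them, with 51 CPM in WT PA, 110 in WT RO, 39.9 in KO PA and 109 in KO RO. Both RO libraries were more than 2-fold above both PA libraries, and the log2 ratios were 1.11 (0.97 to 1.25) and 1.44 (1.28 to 1.61). It carried 2 coding members (chr2:151088265-151088502 and chr2:151089630-151089986) and no PA peak. Its neighbour Gm14147, with 1 coding member (chr2:151102039-151102337), had 100, 180, 61.3 and 166 CPM in the same order.

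The pseudogene Gm1988 had 7.67 CPM in WT PA, 22.8 in WT RO, 11.4 in KO PA and 29.9 in KO RO, with log2 ratios of 1.55 and 1.38. Gm37607 had 10.1, 20.7, 6.84 and 14 CPM. Next in order by the smaller of the 2 ratios were Il17rd, an inhibitor of fibroblast growth factor signalling, and the vomeronasal receptor gene Vmn1r43. Il17rd had 26.7, 68.9, 32.4 and 61.2 CPM in WT PA, WT RO, KO PA and KO RO, log2 ratios of 1.36 (1.18 to 1.56) and 0.92 (0.73 to 1.11). Its 240 bp coding member (chr14:27099983-27100222) had folds of 35 and 8.74, and no PA list held a peak of the gene.

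The 3 genes 2-fold lower in RO in both genotypes were Zfp846, Slc25a30 and Adgra3, none of which passed in the blocked edgeR fit (adjusted p 0.0508 for Slc25a30, 0.0654 for Adgra3 and 0.358 for Zfp846). Slc25a30, a mitochondrial carrier, had 69.3 CPM in WT PA, 32.7 in WT RO, 69.8 in KO PA and 33.9 in KO RO. Both RO libraries had less than 50% of either PA library, with log2 ratios of -1.08 (-1.26 to -0.90) and -1.04 (-1.23 to -0.86). Its 3′ UTR member (chr14:75762417-75762596) was fully covered in KO RO and no PA peak was listed for it. Adgra3, an adhesion receptor, had 50, 24.6, 74.3 and 34.1 CPM and a 3′ UTR member 29 bp from a PA peak. Zfp846 had 24.8, 11.2, 23.7 and 11.2 CPM. The centrosome protein Nde1, the BTB protein Btbd3 and the kelch protein Enc1 came next, at log2 ratios of -1.07, -1.68 and -1.38 in WT and -0.82, -0.81 and -0.76 in KO. A peak listed in RO and not in PA was thus also found for genes with fewer input reads in RO.

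**Figure D5:**
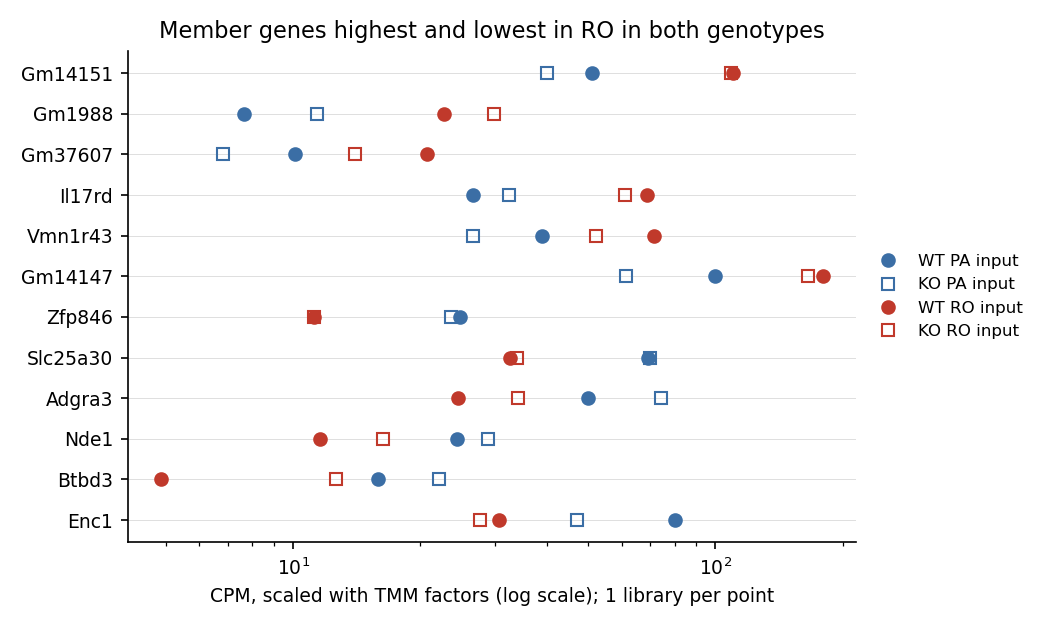
Input level in CPM (horizontal axis, log scale) of the 12 member genes (vertical axis) with the highest and lowest RO over PA ratios in both genotypes, 1 point per library. In the upper 6 genes both RO libraries lie above both PA libraries, and in the lower 6 both lie below.

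The 2 largest WT ratios, those of Actrt1 and Pabpc5, rested on 0 counts in WT PA, and the KO ratios were below 0. Actrt1, an actin-related gene of the sperm head on chromosome X, had 0 counts in WT PA, 42 in WT RO, 67 in KO PA and 46 in KO RO, so it was at least 14.3-fold higher in RO in WT (against 3 counts), and its KO log2 ratio was -0.54. Pabpc5, a poly(A)-binding protein gene on X, had 0, 32, 37 and 29 counts, at least 10.9-fold higher in WT, with a KO log2 ratio of -0.35. In both, WT PA was the only library without counts. Gm3642, with a 3′ UTR member, had 9, 89, 80 and 220 counts and was higher in RO in both genotypes, by log2 ratios of 3.07 (2.34 to 4.51) in WT and 1.42 (1.07 to 1.83) in KO. The coding peak of Raver1 was listed under 2 gene identifiers, of which 1 had no count in any library.

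The promoters of the member genes were searched for the cyclic AMP response element TGACGTCA, a palindrome that reads the same on both strands and is the site of the Crem family, since Crem is a member. RefSeq promoter windows were matched for 225 of 289 member symbols, and 7 genes (3.11%, 1.52 to 6.28) held it, against 549 of 27025 genes in all (2.03%) and 104 of 2400 genes of shared peaks (4.33%). The interval of the members spans both shares. In 4 genes the element lay before the start, and these are shown with it in capitals (GRCm38.p6, strand of the gene).
Brca2, 20 bases before the start, chr5:150522585-150522620: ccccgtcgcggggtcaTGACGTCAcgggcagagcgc
Cenpe, 34 bases before, chr3:135212513-135212552: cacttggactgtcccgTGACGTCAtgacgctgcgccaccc
Stk38l, 64 bases before, chr6:146724850-146724889: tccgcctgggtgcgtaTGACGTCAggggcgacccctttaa
Celf6, 232 bases before, chr9:59578089-59578128: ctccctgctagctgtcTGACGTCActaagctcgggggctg
Dvl1, Usp29 and Zbtb21 held it at or just after the start. None of the 4 genes passed 2-fold between RO and PA: the log2 ratios in WT and KO were -0.28 and 0.14 for Brca2, -0.01 and -0.03 for Cenpe, -0.37 and 0.02 for Stk38l, and 0.57 and 0.27 for Celf6.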

How the data were processed

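Wild-type and Alkbh5 knockout PA and RO cells gave 1 input and 1 immunoprecipitated library each. The authors deposited gene counts of the 4 input libraries (whole numbers, not normalized) and 4 lists of peaks. For every peak, per the file headers, there are exon blocks, a feature class, a gene, a fold (a ratio of immunoprecipitate over input), a p-value, and scores that hold log10 values of the p-value and the false discovery rate; the deposited lists are named for genotype and cell type, and each was made from unreplicated libraries as far as the names tell. The submitters' processing notes name cutadapt 2.5, HISAT2 2.1.0, HOMER 4.10.4 and build mm10, without roles; the peak caller, the counting, its annotation and its use of strand are not given in the sources used here, so that reads of overlapping genes and near-identical copies may be shared.

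Overlaps of at least 1 bp between same-strand exon blocks gave the same members with bedtools 2.31.1. TMM factors from edgeR 4.0.16 (R 4.3.3) turned counts into log2 CPM with a prior count of 2, keeping genes with at least 1 CPM in either library, and a 2-fold difference counted as a call. In libraries simulated with counting error alone and 200 well-covered genes changed 4-fold, all 200 were recovered in the WT and in the KO comparison. The real libraries scattered more than counting error, so the simulation checks the code and not the 2-fold calls. The fit of RO against PA with the genotype as a block used edgeR's quasi-likelihood test on genes with at least 1 CPM in any input, and DESeq2 beside it, and was added after the data were seen. Against a library with 3 counts or fewer a fold is a lower bound computed against 3 counts. Ratios carry exact binomial, shares Wilson, and differences of shares Newcombe 95% intervals; library preparation and biological spread are not in them. Symbols come from the peak lists, so genes without a peak have none, and Alkbh5 was not analysed here. Of 299 members, 279 had their symbol and chromosome in the RefSeq table (GRCm38.p6), and 272 of these overlapped that gene. Python 3.11.15, with pandas 2.3.3, scipy 1.17.1, numpy 2.4.6 and matplotlib 3.10.9 did the rest.

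Genes were named by rule: the 10 highest WT RO folds, the 5 genes with most members, the 6 highest and 6 lowest RO over PA ratios in both genotypes at 10 CPM or more, up to 4 members of each function list, the 3 longest members, and the 3 peaks on each side of the overlap threshold. Other genes were chosen after their values were seen. The members and the lists were chosen with earlier results of these data known. Alternatives were another false discovery rate, fold, overlap, distance and strand rule, the KO list as the source of rows, DESeq2 1.42.0 size factors, total counts, other CPM minimums and a prior of 0.5.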

Additional observations from a re-analysis of the deposited data

Results flagged for a closer look

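In 2 member genes the RO over PA input ratio passed 2-fold in opposite directions in the genotypes, each time with 1 library a group, so that the difference was not tested. Both had between 40 and 640 counts over the 2 libraries of each genotype. In that range the ratios of all genes had a robust SD of 0.68 to 1.51, which the intervals below do not cover. The protocadherin gene Pcdhga1 had 296 counts in WT PA and 127 in WT RO but 64 in KO PA and 142 in KO RO, log2 ratios of -1.18 (-1.51 to -0.89) and 1.11 (0.70 to 1.58); it shares exons with other genes of its cluster. The zinc finger gene Zfp78 had 18 counts in WT PA and 141 in WT RO but 45 in KO PA and 19 in KO RO, log2 ratios of 2.86 (2.28 to 3.79) and -1.18 (-2.12 to -0.46).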

How the results depend on the processing

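The labels pair no replicates, since each group has 1 library. The fit paired within genotype (genotype as replicate block, added after seeing the data) called 8 member genes higher in RO in edgeR and 8 in DESeq2. By the other criterion, past 2-fold in both genotypes, 7 were higher. Gm14151 was the only gene among both these 7 and the 8 of edgeR. Of 94 alternative values of the main results, 77 stayed within the interval of the reported value (counts within 1.5 times) and 17 moved. A reversal could be scored only for differences and log2 ratios whose interval excluded 0, and none was. Counts, shares and widths could not reverse by this rule. The fits stayed by the number of genes alone, not by which genes were called. The member count ran from 204 to 313 under the planned rules and was 526 with the KO RO and KO PA lists exchanged, an alternative added after seeing the data, as were the ranges of width and fold for the class shares. The median width was 209 bp with a false discovery rate under 0.05 in all lists and 180 bp over rows of the KO RO list. The share of members whose gene has a PA peak was 48% with a reciprocal overlap of 50% and 49.2% with no PA peak within 100 bp. The share on chromosome X was 0.38% with the stricter false discovery rate. The WT median log2 ratio was 0.21 with scaling by total counts, which put the median of all genes at 0.11, and 0.21 for genes without a PA peak. Genes at least 2-fold higher in RO in WT numbered 24 at 10 CPM and 25 without a PA peak, in KO 9 without a PA peak, and in both genotypes 3 and 4. Their share minus that of all genes moved from -7.6 points in WT to -1.4 at 10 CPM and -2.05 without a PA peak, and from -11.2 points in KO to -16.2 with no CPM minimum and -0.192 at 10 CPM. For single genes, 192 of 198 alternative ratios stayed within counting error; the other 6 were WT ratios under scaling by total counts. Peaks of few reads, and 1 library a group, limit every value here.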

Other observations

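The most abundant member gene was Fsip2, which encodes a protein of the fibrous sheath of the sperm tail. It had 25403 counts in WT PA, 36709 in WT RO, 23230 in KO PA and 30468 in KO RO, with the RO library above the PA library in each genotype (log2 ratios of 0.56 and 0.37). Its member, a 181 bp coding peak at chr2:82991253-82991433, had folds of 2.31 in WT RO and 1.51 in KO RO, overlapped the KO RO peak by 1 bp, and lay 59 bp from 1 of 9 peaks that each PA list holds in the gene. The lowest KO RO fold of the set thus lay in its most deeply read transcript. Hsf5, a heat shock factor family gene needed for spermatogenesis, was similar: a 210 bp 3′ UTR member with folds of 4.16 and 1.94 and a KO PA peak 209 bp away, in a gene with 1359, 1277, 1194 and 891 counts in WT PA, WT RO, KO PA and KO RO.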
